A study of Rattus norvegicus with 16 samples.

Results

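Expression was followed for 10 members of the machinery that brings lipid into heart cells: Cd36, Lpl, Angptl4, Gpihbp1, Vldlr, Fabp3, Fabp4, Slc27a1, Slc27a6 and Acsl1. They were listed by name, and all 10 were found among the 14324 genes that the platform annotation ties to a probe set of their own, that is, one listed with a single symbol. Each had 1 such probe set, so the rule of taking the brightest left no choice to make. The hearts came from rats aged 2 days of the Hypertrophic Heart Rat (HHR), with hearts that the labels call hypertrophic, and of the Normal Heart Rat (NHR), the control strain with hearts labelled normal. No treatment was given to either strain, and each strain gave 4 female and 4 male hearts, 4 groups in all. Each heart was hybridised on an Affymetrix Rat Gene 1.0 ST array of its own, without pooling. One label speaks of the whole heart and another of ventricles freed of the atria, and litters are not given, so litter and strain cannot be told apart.

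Values are log2 expression levels made by the authors with RMA, so a difference of 1 is a doubling. Array medians lay between 7.19 and 7.28. The 9 cardiomyocyte markers averaged between 12.24 (Ryr2) and 14.24 (Actc1) in HHR. On the first principal component of the deviations from the group means, NHR female 3 scored 14.4, NHR female 4 scored 15.1 and NHR male 4 scored 22.6, against -16.9 to 1.74 in the remaining 5 NHR hearts. Of those 5, NHR female 1 and 2 scored -16.9 and -12.6, and NHR male 1 and 2 scored -11.1 and -13.2, at the opposite end. HHR hearts scored -3.72 to 7.48. Scores are relative to each group's own mean, so neither end can be named the odd one. NHR female 3, NHR female 4 and NHR male 4 are called the 3 NHR arrays apart here, as a label only. No fit left out the opposite end as a set. The labels say the hearts were separate samples but not whether they were from separate litters, so p-values measure the spread between these samples.

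The heart draws most of its energy from fatty acids after birth, when milk replaces glucose and lactate as the main fuel. Triglyceride arrives in lipoproteins and is split at the capillary wall by lipoprotein lipase (Lpl), which Gpihbp1 carries across the endothelium and Angptl4 inhibits. Vldlr binds whole lipoprotein particles. Cd36 takes up the freed fatty acids, Fabp3 (muscle) and Fabp4 (capillary endothelium, adipocytes and macrophages) bind them inside cells, and the transport proteins Slc27a1 and Slc27a6 and the ligase Acsl1 couple them to coenzyme A.

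The upstream sequences of Cd36, Vldlr and Angptl4 are shown because these 3 genes passed the strain test and RefSeq's promoter table holds them. That table (build GRCr8) matched 7 of the 10 members, and the other 3 were Lpl, Gpihbp1 and Fabp4. Each sequence below is the 250 bases before the annotated start, on the strand of the gene, with matches to TATAAA or GGGCGG in capitals on either strand. Cd36 lies on the plus strand at chr4:18246332-18246581, Vldlr on the plus strand at chr1:234240436-234240685 and Angptl4 on the minus strand at chr7:15258682-15258931. These coordinates belong to the RefSeq table, not to the array.
Cd36: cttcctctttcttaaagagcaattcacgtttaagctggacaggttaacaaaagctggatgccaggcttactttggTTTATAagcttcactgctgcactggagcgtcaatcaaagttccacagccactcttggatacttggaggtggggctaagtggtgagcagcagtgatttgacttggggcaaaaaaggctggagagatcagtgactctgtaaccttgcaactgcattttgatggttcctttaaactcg
Vldlr: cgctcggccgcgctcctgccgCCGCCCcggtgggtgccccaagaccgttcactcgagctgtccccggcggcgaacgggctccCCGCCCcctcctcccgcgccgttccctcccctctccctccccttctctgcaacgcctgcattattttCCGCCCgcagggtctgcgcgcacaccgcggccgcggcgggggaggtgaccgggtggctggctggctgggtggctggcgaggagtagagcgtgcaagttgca
Angptl4: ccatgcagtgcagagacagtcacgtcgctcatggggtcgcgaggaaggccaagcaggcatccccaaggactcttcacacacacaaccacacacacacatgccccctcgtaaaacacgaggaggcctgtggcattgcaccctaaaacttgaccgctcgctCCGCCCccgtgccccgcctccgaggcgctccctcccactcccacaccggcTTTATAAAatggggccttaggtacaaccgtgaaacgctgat

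A set of 6 motifs was searched on both strands of these windows: AGGTCA (a core site of nuclear receptors), the direct repeat of that site with 1 base between (bound by the fatty acid receptors of the PPAR family with RXR), TATAAA (the TATA box), CCAAT (the site of the factor NF-Y), GGGCGG (the GC box bound by Sp1) and CACGTG (an E box). Among all 33469 windows of that length, 14.1% held the first, 0.051% the direct repeat, 12.9% the TATA box, 34.0% the NF-Y site, 30.5% the GC box and 5.59% the E box. The Angptl4 window held TATAAA on its own strand, 39 to 34 bases before the start. A second match on the opposite strand overlapped it. It also held 1 GGGCGG on the opposite strand. The Vldlr window was GC-rich (73.6%, against a median of 51.2% over all windows) and held GGGCGG 3 times on the opposite strand. In Cd36 the only match was TATAAA on the opposite strand, 175 to 170 bases before the start. AGGTCA was found in Slc27a1 alone among the 7 members, on the opposite strand, and the direct repeat in none of the 7. These matches describe letters in a window and are not evidence of binding.

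The comparison of HHR with NHR asked how newborn hearts of a strain with inherited cardiac hypertrophy differ from those of its control strain. The surface receptors Cd36 and Vldlr were higher in HHR, and Lpl, its inhibitor Angptl4 and the fatty acid-binding protein Fabp4 were lower. The other 5 members did not pass the test. Over all 27342 probe sets, 20.7% passed it (limma adjusted p under 0.05), 9.64% higher and 11.0% lower. So 5 of 10 members stood against a background of about 1 in 5, or 23.1% of genes on their brightest probe set. The members were chosen with earlier results of these data known, so that count is a description only. The median difference of the 10 members was -0.08, against -0.02 over all genes, and the median size of their differences was 0.27, against 0.086. In 2 members, Cd36 and Vldlr, the 8 HHR hearts did not overlap the 8 NHR hearts, which held for 4.15% of all probe sets (1.95% with HHR above, as here, and 2.2% with HHR below). A sequence variant under the probes can shift a signal without a change in RNA, and the array cannot tell them apart. In whole tissue, fewer cells of a type and less RNA per cell cannot be told apart either.

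**Figure D1:**
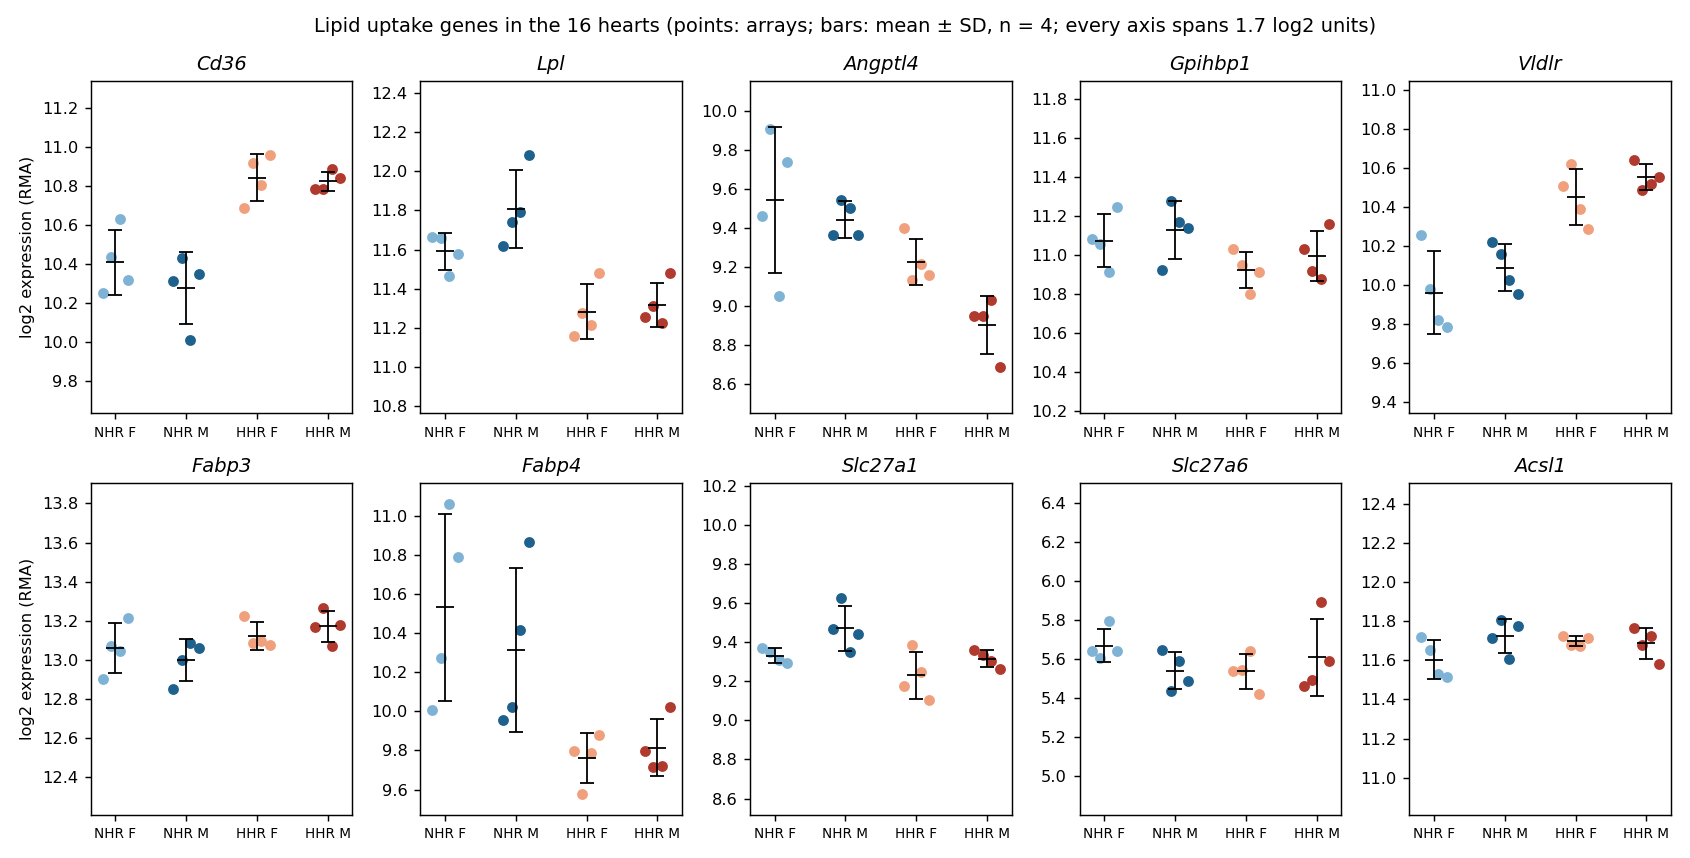
Log2 expression of the 10 lipid uptake genes by group (F, female; M, male), with a point per array and bars for the mean and SD of 4 arrays; every vertical axis spans 1.7 log2 units. All HHR points of Cd36 and Vldlr lie above the NHR points, and the Fabp4 values of NHR spread from 9.96 to 11.06.

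Cd36, the scavenger receptor that carries long-chain fatty acids across the plasma membrane, was higher in HHR. HHR females read 10.69, 10.92, 10.80 and 10.96, and HHR males 10.79, 10.79, 10.89 and 10.84. NHR females read 10.25, 10.43, 10.63 and 10.32, and NHR males 10.31, 10.43, 10.01 and 10.35. The lowest HHR heart thus lay just above the highest NHR heart, and the spread in HHR males was small (SD 0.05, n = 4) beside that in NHR males (SD 0.18, n = 4). Means were 10.83 ± 0.09 (SD, n = 8) in HHR and 10.34 ± 0.18 (SD, n = 8) in NHR. The difference was 0.49 (SE 0.07, limma adjusted p = 9.3e-05), or 1.41-fold with a 95% confidence interval of 1.28 to 1.55. Ordered by mean, HHR females came first, then HHR males, then NHR females and last NHR males, and only the step between the strains separated neighbours without overlap. Among all 14324 genes Cd36 had the 164th highest difference. Without the 3 NHR arrays apart the difference was 0.54.

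Vldlr, the very low density lipoprotein receptor, which holds triglyceride-rich particles at the surface of cells, was also higher in all 8 HHR hearts than in any NHR heart. HHR females read 10.51, 10.62, 10.39 and 10.29, and HHR males 10.64, 10.49, 10.52 and 10.56. In NHR the females read 10.26, 9.98, 9.82 and 9.79, and the males 10.22, 10.16, 10.03 and 9.95. The strains came close at HHR female 4 and NHR female 1, which were 10.29 and 10.26. The means were 10.50 ± 0.12 (SD, n = 8) and 10.03 ± 0.18 (SD, n = 8), a difference of 0.48 (SE 0.07, limma adjusted p = 1.7e-04) or 1.39-fold (95% confidence interval 1.26 to 1.54). The 3 NHR arrays apart held the lowest Vldlr values, at most 9.95 where the other 5 NHR hearts read 9.98 or more. Without them the difference was 0.37 (adjusted p = 0.00203). Within females, where only NHR female 1 and 2 then remained of NHR, it was 0.33 and no longer passed (adjusted p = 0.072).

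Lpl, the enzyme that frees fatty acids from circulating triglyceride, was lower in HHR. HHR females read 11.16, 11.27, 11.21 and 11.48, and HHR males 11.26, 11.31, 11.22 and 11.48. NHR females read 11.66, 11.66, 11.46 and 11.58, and NHR males 11.62, 11.74, 11.79 and 12.08. Of the 8 HHR hearts, 6 lay below every NHR heart, and the overlap came from replicate 4 of both HHR groups (11.48) and NHR female 3 (11.46). The means were 11.30 ± 0.12 (SD, n = 8) and 11.70 ± 0.19 (SD, n = 8). The difference was -0.40 (SE 0.07, limma adjusted p = 5.6e-04), which is 1.32-fold lower (95% confidence interval 1.20 to 1.46). It lay between -0.45 and -0.35 over the 27 alternative settings and passed in each. Among these, the mean of a gene's probe sets could not differ from the main fit, since Lpl had no other probe set.

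Angptl4, a secreted inhibitor of lipoprotein lipase and a classic target of the PPAR receptors, fell alongside the enzyme it inhibits. HHR females read 9.40, 9.14, 9.21 and 9.16, and HHR males 8.95, 8.95, 9.03 and 8.69. NHR females read 9.46, 9.91, 9.05 and 9.74, and NHR males 9.36, 9.54, 9.50 and 9.36. HHR males were the lowest group, and each of the 4 lay below every NHR heart. HHR females overlapped NHR at more than a single heart. NHR female 3 had the lowest NHR value, 9.05, and HHR female 1 (9.40) lay above NHR male 1 and NHR male 4 (both 9.36). The strain means were 9.07 ± 0.21 (SD, n = 8) and 9.49 ± 0.26 (SD, n = 8), a difference of -0.43 (SE 0.09, limma adjusted p = 0.00418) or 1.34-fold lower (95% confidence interval 1.17 to 1.54).

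Gpihbp1, the endothelial anchor of lipoprotein lipase, did not pass the test. It ranged from 10.80 to 11.16 with a median of 10.93 in HHR, and from 10.91 to 11.28 with a median of 11.11 in NHR. Its difference was -0.14 (SE 0.06, limma adjusted p = 0.12), with a 95% confidence interval of -0.27 to -0.01 before adjustment, so the direction matched that of Lpl but the call rests on the adjustment. Without NHR male 1 it passed (-0.18, adjusted p = 0.0486).

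Fabp4, the fatty acid-binding protein of capillary endothelium, adipocytes and macrophages, had the lowest difference of the 10 members. HHR females read 9.80, 9.58, 9.79 and 9.88, and HHR males 9.80, 9.71, 9.72 and 10.02. NHR females read 10.01, 10.27, 11.06 and 10.79, and NHR males 9.96, 10.02, 10.42 and 10.87. Of the 8 HHR hearts, 7 lay below every NHR heart, and HHR male 4 (10.02) lay among the low NHR hearts. The strains differed in spread as well as in level. The SD was 0.13 (n = 8) about a mean of 9.79 in HHR and 0.43 (n = 8) about 10.42 in NHR. The difference was -0.64 (SE 0.14, limma adjusted p = 0.00433), or 1.56-fold lower (95% confidence interval 1.26 to 1.91), the 27th lowest of 14324 genes.

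The size of the Fabp4 difference moved with the 3 NHR arrays apart. They held the 3 highest Fabp4 values, 10.79 to 11.06, while the other 5 NHR hearts read 9.96 to 10.42. Without them the difference was -0.35 (limma adjusted p = 0.0155), still past the test. Within females, where only NHR female 1 and 2 then remained of NHR, it was -0.38 and did not pass (adjusted p = 0.118). Leaving out single hearts also ended the call within females: with HHR female 2 left out the adjusted p was 0.055, with NHR female 3 left out 0.0671, and with NHR female 4 left out 0.068. Vldlr went the other way in the 3 NHR arrays apart, averaging 0.27 below the other NHR hearts, where Fabp4 averaged 0.77 above them.

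**Figure D2:**
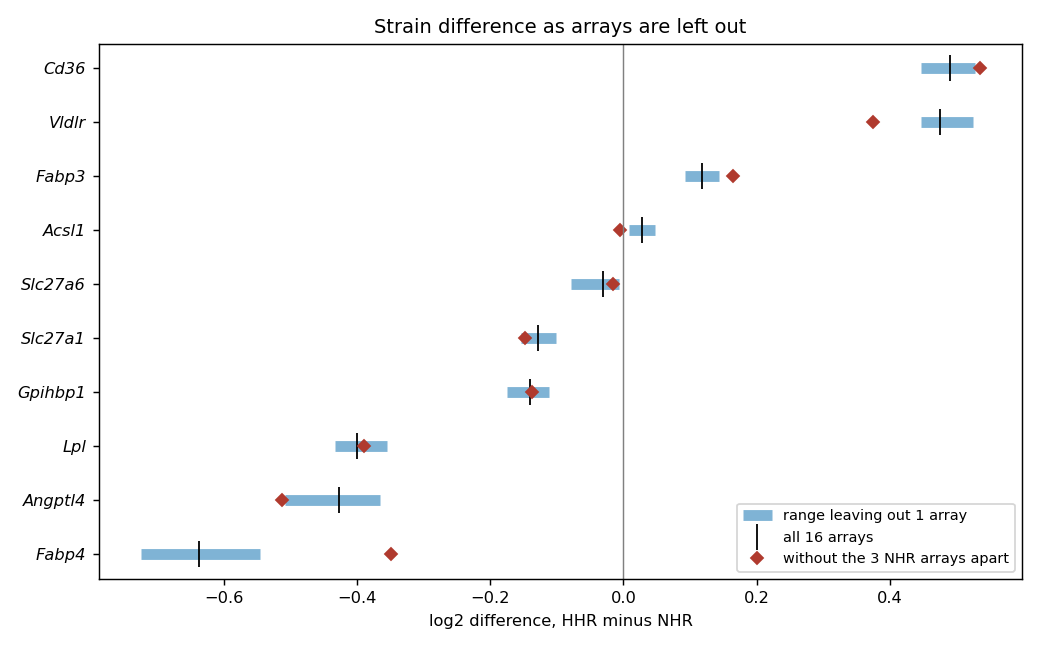
Log2 difference, HHR minus NHR, of each gene with all 16 arrays (black tick), the range when any 1 array is left out (blue bar), and the value without NHR female 3, NHR female 4 and NHR male 4 (red diamond). Fabp4 moves from -0.64 to -0.35, Vldlr from 0.48 to 0.37, and Lpl from -0.40 to -0.39.

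Fabp3, the abundant fatty acid-binding protein of heart muscle, differed by 0.12 (SE 0.05, limma adjusted p = 0.118). HHR hearts read 13.07 to 13.26 with a median of 13.13, and NHR hearts 12.85 to 13.21 with a median of 13.05. The interval of the difference, 0.01 to 0.23, leaves room for a change of up to 1.17-fold. With array weights it passed (0.14, adjusted p = 0.0493), and under cyclic loess it was 0.06 (adjusted p = 0.487). Fabp3 and Fabp4 therefore gave opposite signs, and Fabp4 alone of the pair passed.

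The transport proteins and the ligase differed little. Slc27a1, a fatty acid transport protein of muscle and fat, ranged from 9.11 to 9.39 in HHR and from 9.29 to 9.63 in NHR, with 4 HHR hearts below every NHR heart. Its difference was -0.13 (SE 0.05, limma adjusted p = 0.0696), and it passed in 6 of the 27 alternatives, among them without HHR female 2 (adjusted p = 0.0298) and without NHR male 3 (adjusted p = 0.0445). Slc27a6, the transport protein reported as heart-enriched, gave a dim signal of 5.42 to 5.89 in HHR and 5.43 to 5.79 in NHR, and no background level was recorded beside it. Its difference was -0.03 (95% confidence interval -0.16 to 0.10, adjusted p = 0.763). Acsl1, the main acyl-CoA ligase of heart, ranged from 11.58 to 11.76 in HHR and from 11.52 to 11.80 in NHR. The difference was 0.03 (95% confidence interval -0.07 to 0.12, adjusted p = 0.718), and for both genes the sign turned under quantile normalization and under cyclic loess.

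Cd36, Vldlr and Lpl passed in both sexes taken alone. In females 4 of 10 members passed, against 12.0% of all probe sets: Cd36 (0.43), Vldlr (0.49), Lpl (-0.31) and Fabp4 (-0.77). In males 4 of 10 passed, against 4.02%: Cd36 (0.55), Vldlr (0.46), Lpl (-0.49) and Angptl4 (-0.54). Angptl4 in females was -0.31 (limma adjusted p = 0.14) and Fabp4 in males -0.50 (adjusted p = 0.171). The call of Lpl in females was near the threshold (adjusted p = 0.0414) and was lost in 9 of 25 alternatives, 8 of which left out a single heart: leaving out HHR female 1, 2 or 3 gave an adjusted p of 0.124, 0.0825 or 0.105, leaving out NHR female 1, 2 or 4 gave 0.081, 0.0868 or 0.0833, and leaving out HHR male 2 or NHR male 3 gave 0.0537 or 0.0504. Angptl4 in females passed without NHR female 3 (-0.48, adjusted p = 0.0124). In males its call was lost without any of HHR male 1 (adjusted p = 0.067), HHR male 2 (0.0713), HHR male 4 (0.0899), NHR male 1 (0.0537), NHR male 3 (0.0923) or NHR male 4 (0.0523).

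None of the 10 members passed the test that the strain difference itself differs between the sexes. The limma adjusted p was 0.994 or higher in each, no member reached an unadjusted p under 0.05, and 0.0% of all probe sets passed, although 1390 had an unadjusted p under 0.05. The intervals are wide: for Angptl4 the male minus female strain effect was -0.22 with a 95% confidence interval of -0.62 to 0.17, and for Fabp4 it was 0.27 with an interval of -0.33 to 0.87. For males against females over both strains, 0 of 10 members passed, against 0.011% of all probe sets. Angptl4 (-0.21, adjusted p = 0.766) and Slc27a1 (0.11, adjusted p = 0.764) had an unadjusted p under 0.05.

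**Figure D3:**
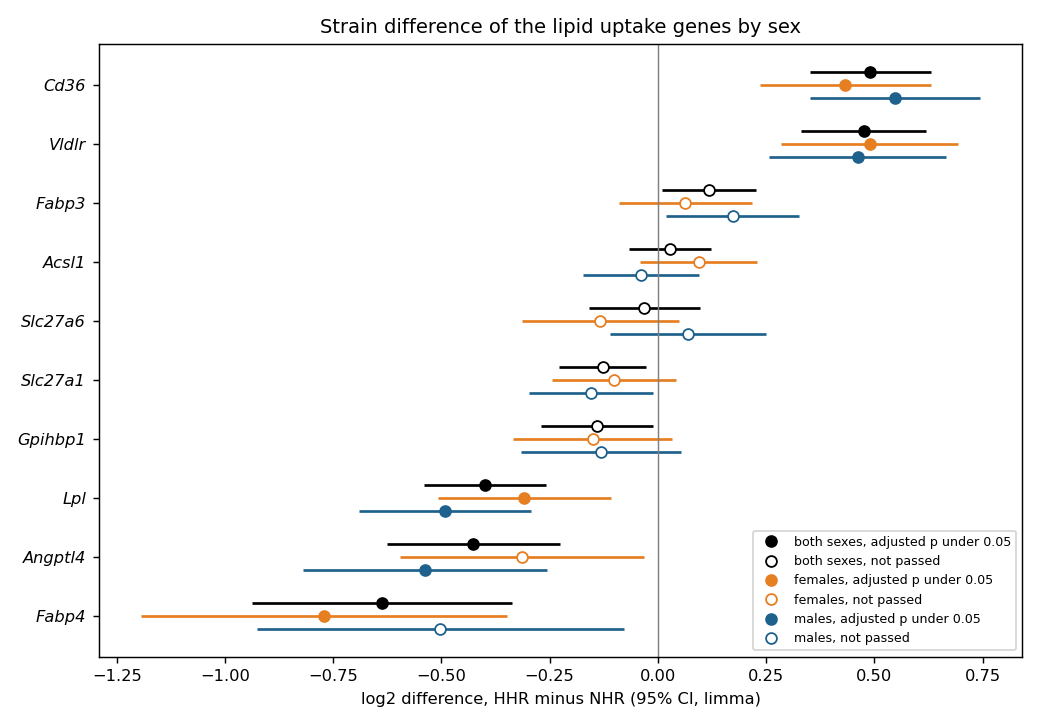
Log2 difference, HHR minus NHR, with its 95% confidence interval from limma, for both sexes together (black), females (orange) and males (blue); filled points passed an adjusted p of 0.05. Cd36 and Vldlr lie right of 0 and Lpl, Angptl4 and Fabp4 left of 0 in both sexes, while the intervals of females and males overlap in all 10 genes.

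A further 4 lists placed these genes among the rest of lipid handling: lipolysis at the vessel wall and lipoprotein receptors, fatty acid transport and activation, triglyceride storage and breakdown, and regulators. Of 70 listed genes, 59 had a probe set of their own. Among them 12 rose, 12 fell and 35 did not pass, which is 40.7% called, against 23.1% of all genes on their brightest probe set. Their median difference was -0.01, against -0.02 over all genes.

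Storage and breakdown of triglyceride held the highest share of calls, 9 of 15 measured genes (5 higher and 4 lower, median 0.05). That is 60.0% called, against 23.1% of all genes. Plin2, which coats lipid droplets and is stabilised by them, averaged 11.05 ± 0.09 (SD, n = 8) in HHR and 10.58 ± 0.26 (SD, n = 8) in NHR. The difference was 0.47 (SE 0.09, limma adjusted p = 0.002), with all 8 HHR hearts above every NHR heart. Plin3, another droplet coat protein, rose by 0.38 (SE 0.07, adjusted p = 7.6e-04, 8 of 8 hearts), and Agpat2, an acyltransferase of triglyceride synthesis, by 0.34 (SE 0.07, adjusted p = 0.00324, 6 of 8). The genes of breakdown and of its inhibition that passed were lower in HHR. Lipe, the hormone-sensitive lipase, fell by 0.38 (SE 0.05, adjusted p = 1.0e-04, 8 of 8) and Mgll, the monoglyceride lipase, by 0.36 (SE 0.05, adjusted p = 2.2e-04, 6 of 8). G0s2, which inhibits the adipose triglyceride lipase, fell by 0.32 (SE 0.06, adjusted p = 0.00204, 8 of 8). That lipase itself, Pnpla2 (0.17, adjusted p = 0.288), and its coactivator Abhd5 (0.06, adjusted p = 0.351), both named after their values were seen, did not pass. Among genes of synthesis Gpam, also named after its value was seen, was lower (-0.18, adjusted p = 0.0477), a call lost in 16 of 27 alternatives. With the 3 NHR arrays apart removed, 6 passed as higher and 3 as lower. Plin2 was then 0.29 and Agpat2 0.23, and both still passed.

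Of 20 transport and activation genes, 3 rose, 2 fell and 15 did not pass (median -0.01). That is 25.0% called, near the 23.1% of all genes. Fabp5, the epidermal-type fatty acid-binding protein also present in endothelium, rose by 0.20 (SE 0.04, limma adjusted p = 0.00466, 8 of 8 hearts). Acot13, a mitochondrial acyl-CoA thioesterase, rose by 0.26 (adjusted p = 0.00833) and Got2, the mitochondrial aspartate aminotransferase also described as a membrane fatty acid-binding protein, by 0.15 (adjusted p = 0.0221). Dbi, the acyl-CoA-binding protein, differed by -0.46 (adjusted p = 0.022) with an SD of 0.41 in NHR, and Cav1, the caveolar coat protein that supports Cd36 at the membrane, differed by -0.14 (adjusted p = 0.0441). Slc27a4, a further transport protein, differed by 0.04 (adjusted p = 0.676). Without the 3 NHR arrays apart Dbi (-0.17, adjusted p = 0.128) and Got2 (0.09, adjusted p = 0.171) did not pass, and Cav1 lost its call in 13 of 27 alternatives, with adjusted p up to 0.129.

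Of the 7 measured genes of lipolysis at the vessel wall and lipoprotein receptors, 0 rose and 2 fell (median 0.02). That is 28.6% called, near the 23.1% of all genes. Furin, a protease that cleaves lipoprotein lipase, fell by 0.17 (SE 0.04, limma adjusted p = 0.00702, 7 of 8 hearts). The lipoprotein receptor Scarb1 differed by -0.13 (adjusted p = 0.0494), a call lost in 18 of 27 alternatives. Without the 3 NHR arrays apart Furin alone of the list passed (-0.15, adjusted p = 0.0487).

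Regulators split evenly, with 4 higher and 4 lower of 17 (median -0.06). That is 47.1% called, against 23.1% of all genes. Ppard, the PPAR receptor prominent in striated muscle, averaged 10.93 ± 0.05 (SD, n = 8) in HHR and 10.50 ± 0.32 (SD, n = 8) in NHR, a difference of 0.43 (SE 0.10, limma adjusted p = 0.00573), with all 8 HHR hearts above NHR. Prkaa2, a catalytic subunit of the energy sensor AMPK, rose by 0.37 (adjusted p = 0.00673), and Ppargc1a, the coactivator of mitochondrial and fatty acid genes, by 0.24 (adjusted p = 0.0119). Rxrb, a partner receptor of the PPARs, fell by 0.30 (SE 0.05, adjusted p = 4.5e-04, 7 of 8 hearts). Meox2, an endothelial factor that supports fatty acid uptake in heart capillaries, fell by 0.27 (SE 0.07, adjusted p = 0.00944, 2 of 8). Its difference was -0.47 in females and -0.06 in males, though no probe set passed the test between the sexes. Esrra, the estrogen-related receptor of energy metabolism, fell by 0.20 (adjusted p = 0.0117). Ppara, the main PPAR of fatty acid oxidation, was 0.16 higher (adjusted p = 0.0504) and passed in 9 of 27 alternatives, with adjusted p from 0.0268 to 0.123. Pparg, the PPAR of adipocytes, differed by -0.11 (adjusted p = 0.449). Tcf15, the partner of Meox2, was not measured by a probe set of its own. With the 3 NHR arrays apart removed, 2 regulators passed as higher and 2 as lower: Ppard was then 0.21 (adjusted p = 0.00698) and Prkaa2 0.20 (adjusted p = 0.0443), while Ppargc1a (0.14, adjusted p = 0.111) and Esrra (-0.14, adjusted p = 0.0862) did not pass.

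**Figure D4:**
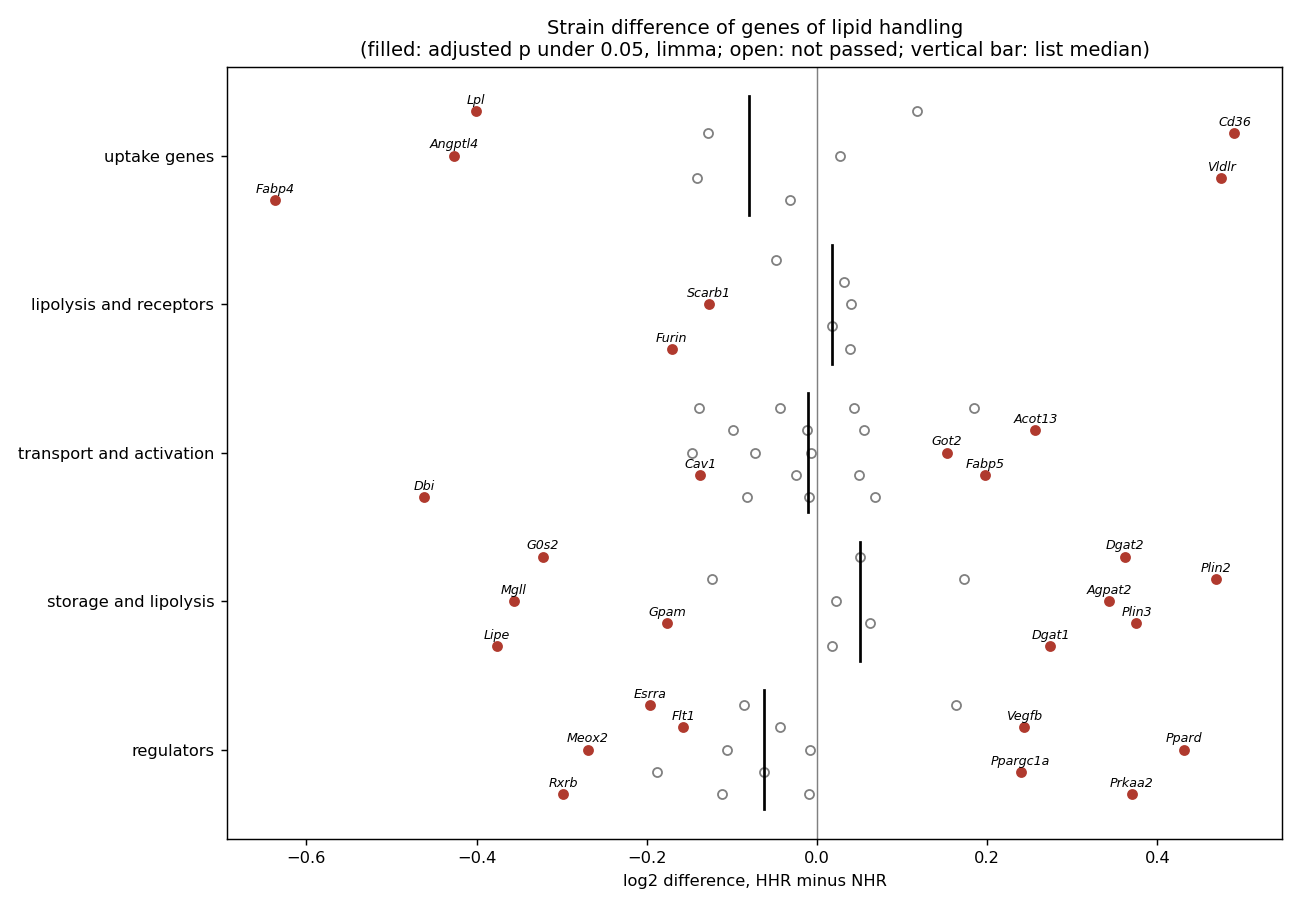
Log2 difference, HHR minus NHR, of the 10 uptake genes and of the measured genes of 4 lists of lipid handling, a point per gene; filled red points passed an adjusted p of 0.05, open points did not, vertical bars are list medians, and height within a row has no meaning. Plin2 (0.47), Plin3 (0.38) and Dgat2 (0.36) lie to the right of 0, and Lipe (-0.38), Mgll (-0.36) and G0s2 (-0.32) to the left.

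Several of the uptake genes are made by particular cell types, so markers of those cells were read in the same fit. The marker counts stand against 23.1% of all genes called. Of 8 endothelial markers 4 fell and 1 rose (median -0.09, against -0.02 over all genes). The junction gene Cldn5 fell by 0.41 (limma adjusted p = 6.8e-05) and the receptor Tie1 by 0.22 (adjusted p = 0.00138). The marker that rose was the adhesion molecule Esam (0.22, adjusted p = 0.00441), named after its value was seen. The mean of the endothelial list ranged from 10.33 to 10.50 over HHR hearts and from 10.45 to 10.59 over NHR hearts. Fabp4 and Gpihbp1 are endothelial genes, and the part of these markers in their differences was not tested. In the 3 NHR arrays apart, where Fabp4 was highest, the endothelial mean was 10.45 to 10.59, around the 10.50 to 10.55 of the other 5 NHR hearts.

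Adipocytes and macrophages also make Fabp4, Lpl and Cd36. None of 8 adipocyte markers passed (limma; 0 also at an unadjusted p under 0.05), the nearest being Retn (-0.11, adjusted p = 0.237) and Cfd (-0.08, adjusted p = 0.404). The adipocyte list mean ranged from 6.20 to 6.31 in HHR and from 6.18 to 6.36 in NHR, with Adipoq at 5.73 and 5.78 and the brown fat gene Ucp1 at 5.22 in both. Only 3 of the 8 remained under the filter on dim probe sets. Dim probe sets can hardly show a difference, so the list cannot tell whether adipocyte content was equal. Of 9 macrophage markers 1 passed (11.1%, against 23.1% of all genes), the complement gene C1qb (0.38, adjusted p = 0.00484), while Lyz2 differed by -0.19 (adjusted p = 0.207). That list's mean ranged from 7.65 to 8.14 in HHR and from 7.72 to 8.11 in NHR.

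Lpl, Cd36, Vldlr, Fabp3 and Acsl1 are also made by cardiomyocytes. Of 9 cardiomyocyte markers 5 were lower and 0 higher (median -0.14), and without the 3 NHR arrays apart 2 were lower. Ryr2, the calcium release channel, differed by -0.26 (limma adjusted p = 0.00158) and Myh6, the fast myosin heavy chain, by -0.21 (adjusted p = 0.00484). Lpl (-0.40) had the sign of the 5 called markers, and Cd36 (0.49) and Vldlr (0.48) the opposite sign. The list did not share 1 sign: Actc1 (0.01), Myl3 (0.02) and Pln (0.03), named after their values were seen, were positive and did not pass. Of 5 atrial markers, Bmp10 (1.05, adjusted p = 9.5e-06) and Nppa (0.34, adjusted p = 2.9e-04) were higher and 0 lower. The other 3, named after their values were seen, did not pass. These were Myl7 (0.07, adjusted p = 0.565), Sln (0.34, adjusted p = 0.54, but -0.15 in males) and Nr2f2 (-0.02, adjusted p = 0.796). The atrial list mean was 10.02 to 10.85 in HHR and 9.61 to 10.29 in NHR. Fibroblast markers gave 3 higher and 0 lower of 8, among them Col1a2 (0.19, adjusted p = 0.00579) and Tcf21 (0.37, adjusted p = 0.00585). Lum (-0.16, adjusted p = 0.242) and Col3a1 (-0.03, adjusted p = 0.696), named after their values were seen, were negative and did not pass. Erythroid markers gave 1 higher and 2 lower of 4, with Hbb at 0.45 (adjusted p = 0.00433) and Epb42 at -0.55 (adjusted p = 9.3e-05). The part of these lists in the uptake genes' differences was not tested.

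**Figure D5:**
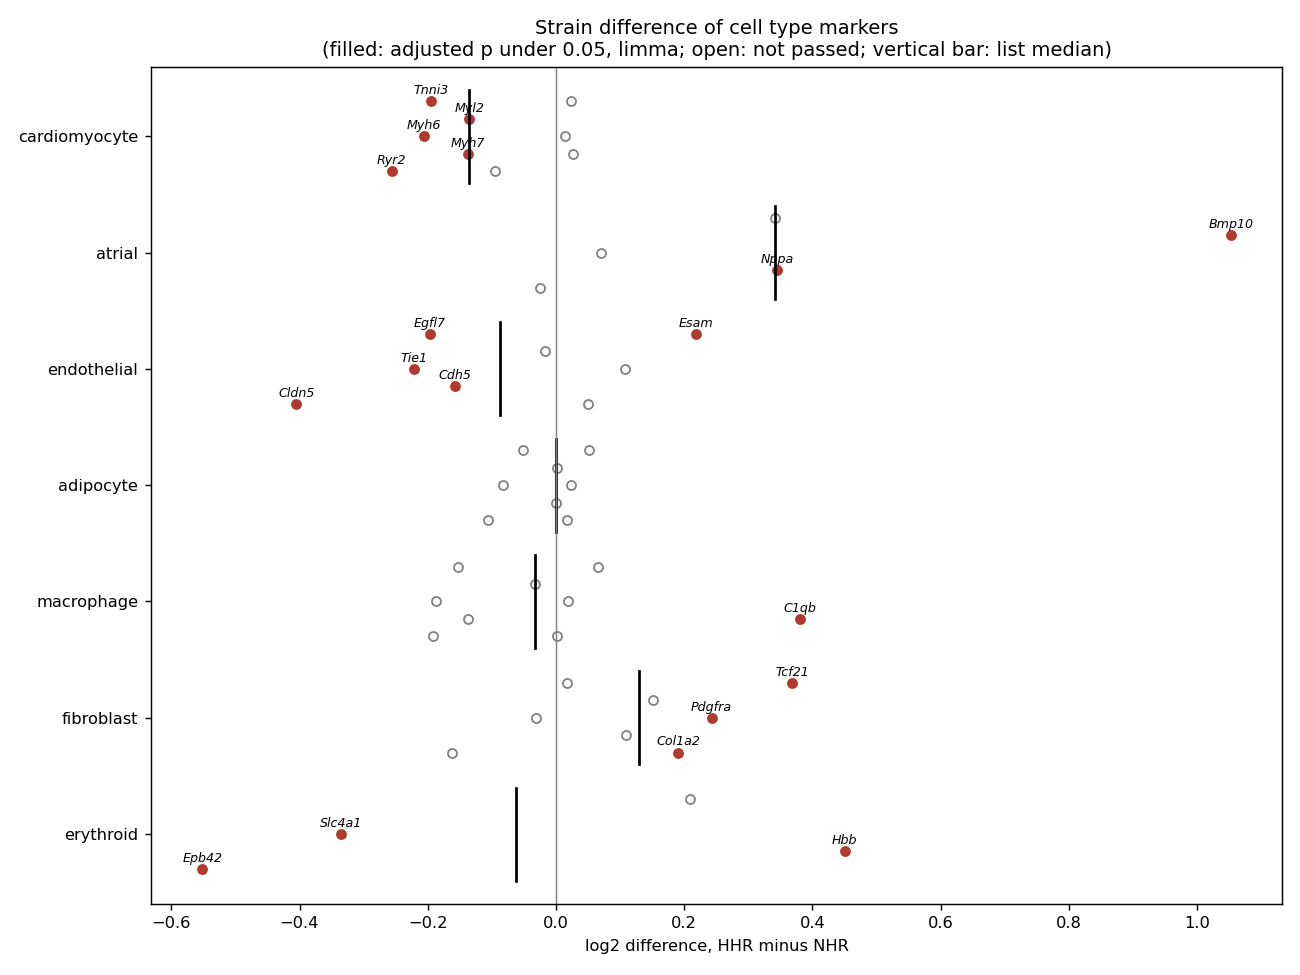
Log2 difference, HHR minus NHR, of markers of 7 cell types or tissues, a point per gene; filled red points passed an adjusted p of 0.05, open points did not, vertical bars are list medians, and height within a row has no meaning. The adipocyte row holds open points only, between -0.11 and 0.05.

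The genes nearest to each of the 5 called members over the 16 arrays were found by the root mean square difference of values centred on each gene's own mean. They were chosen for that likeness over the same arrays, so they share the members' strain differences by choice and are given as a description. For Cd36 they were Pole3, a DNA polymerase epsilon subunit (0.094), and Crot, the peroxisomal carnitine octanoyltransferase (0.11), against a root mean square of 0.278 for Cd36 about its own mean. For Lpl they were Tmem140 (0.11) and Slc2a1, the glucose transporter of fetal heart (0.119). Vldlr lay nearest to Slc35b2, a transporter of the sulfate donor PAPS (0.089), and G6pc3, a glucose-6-phosphatase (0.091). Angptl4 had no gene as near, with Mllt11 at 0.17 and Jph2, a junctional membrane protein of muscle, at 0.18. Fabp4 lay nearest to Smim26 (0.13) and Psmg4, a proteasome assembly factor (0.17). No member was among the 2 genes nearest to another member.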

How the data were processed

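Hearts of 16 newborn rats were measured, and the authors deposited log2 expression values. The submitters' processing notes name RMA, which adjusts background, equalises arrays and condenses probes into probe sets, and limma. Versions and filters are not given in the sources used here, and no detection level was recorded. The number of arrays limits the precision. All 16 columns were used. Of 27342 probe sets, 15097 had 1 gene symbol in the platform annotation, 323 several and 11922 none.

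Group means were fitted with limma 3.58.1 (R 4.3.3) to all probe sets, with empirical Bayes moderation, Benjamini-Hochberg adjustment over all 27342 probe sets and a threshold of 0.05. The 5 contrasts were strain, strain in each sex, their difference, and sex. Genes of the lists were represented by their brightest single-symbol probe set. The fit was tried on simulated data with planted strain differences and noise independent between arrays. That simulation cannot show how calls behave where arrays vary together.

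The members and lists were chosen with earlier results of these data known. Named genes were all members, up to 3 per direction in each pathway list with the smallest adjusted p, 9 pathway genes whatever their values, 2 per marker list, and the 2 nearest to each called member. Alternatives were a filter on dim probe sets, single-symbol probe sets only, 3 further normalizations, other moderation, array weights, a replicate block, no sex term, the mean of a gene's probe sets, and leaving out each array. For the members, with 1 probe set each, the mean of a gene's probe sets repeats the main fit. Leaving out the 3 NHR arrays apart was chosen after seeing the data.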

Additional observations from a re-analysis of the deposited data

Results flagged for a closer look

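Fabp3 in HHR female 1 read 13.23, far from the other 3 HHR females at 13.07 to 13.10. The gap to the nearest of them was 0.853 of the range of the group, above the limit that Dixon's test sets for 4 samples. It was the only such value among 40 combinations of member and group, and chance alone marks about 1 in 20. Without that heart the Fabp3 strain difference was 0.10 (limma adjusted p = 0.216).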

How the results depend on the processing

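Over up to 27 alternatives each, Cd36, Vldlr, Lpl, Angptl4 and Fabp4 kept their direction and their strain call. The counts of members (2 to 3 higher, 3 to 4 lower), of the pathway lists (10 to 13 higher, 8 to 15 lower) and of all probe sets called for strain (3773 to 6402) stayed within 1.5 times those reported. Not all alternatives tested as many. The 3773 were of 15097 single-symbol probe sets, and the 15 were of 51 listed genes kept by the filter on dim probe sets. Signs turned for Slc27a6 (0.0035 under quantile normalization, 0.0065 under cyclic loess, adjusted p of 0.98 and 0.96), for Acsl1 (-0.029 and -0.013 under the same settings, -0.00475 without the 3 NHR arrays apart), for Slc27a4 (-0.036 without those arrays), for Fabp3 in females (-0.023 under cyclic loess) and for Slc27a6 in males (-0.024 without HHR male 3, the lowest of -0.024 to 0.118 over single hearts left out); none of these had passed. Leaving out 1 heart gave 1830 to 3761 probe sets called in females, against 3278, and 489 to 2026 in males, against 1098. It gave 0 to 1 for the interaction and 2 to 4 for sex, against 0 and 3. Without the 3 NHR arrays apart 1238 passed in females and 0 for sex (limma, which also has fewer samples then); array weights gave 2035 in males and 5 for sex. The cause of the other changes was not tested. The labels do not say what the replicate numbers mean. Deviations of same-numbered hearts correlated above 0.1 in 11 of 24 pairs of groups (-0.11 to 0.37). Hearts with unlike numbers were not compared, so these values cannot tell whether the numbers pair the hearts. With the replicate block 6145 probe sets were called for strain, Slc27a1 (adjusted p = 0.0448) and Ppara (adjusted p = 0.0471) passed, and no other strain call of a member changed. Median centring turned the share of strain calls that were higher from 46.6% to 56.3%. Signal over background is unknown, which limits what can be said of dim genes such as Slc27a6.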

Other observations

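Further genes of triglyceride handling passed the strain test and are named here after their values were seen. The acyltransferases of the last step of triglyceride synthesis, Dgat1 (0.27, limma adjusted p = 0.00919) and Dgat2 (0.36, adjusted p = 0.00421), were higher in HHR and passed in all 27 alternatives. Vegfb, a growth factor tied to endothelial fatty acid uptake, was higher (0.24, adjusted p = 0.0324) and its receptor Flt1 lower (-0.16, adjusted p = 0.023). Neither Vegfb (0.09, adjusted p = 0.263) nor Flt1 (-0.13, adjusted p = 0.124) passed without the 3 NHR arrays apart.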
